A study of Mus musculus with 18 samples.

Results

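The testis-specific serine kinases, Tssk1 to Tssk6, and their substrate Tsks were followed across 4 genotypes in whole mouse testis. Every probe annotated to these 7 genes was taken, whatever its level. Of 45281 probes on the array, 7 carried the name of 6 of the genes: Tsks had 2 probes, and Tssk1, Tssk2, Tssk4, Tssk5 and Tssk6 had 1 each. No probe here carried the name Tssk3. A probe was tested if its signal stood above the negative controls (detection p under 0.01) on at least 4 of the 18 arrays. That left 5 probes of 4 genes, Tssk6, Tssk2, Tssk4 and Tsks, among 19076 tested probes. The probes of Tssk1 and Tssk5 were detected on 0 of 18 arrays.

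Total RNA of testes from 12-week-old mice of an FVB/N x C57/BL6 cross was hybridised to Illumina bead arrays, 1 array per sample. There were 5 arrays of Fshr mutant/Lhr null testes, which combine the alleles and are called the double mutant below, 5 of Lhr null, 4 of Fshr mutant and 4 of wild type testes. The series title asks which transcripts depend on the follicle stimulating hormone and luteinizing hormone pathways and on the crosstalk of these pathways. Fshr encodes the receptor for follicle stimulating hormone on Sertoli cells, and Lhr the receptor for luteinizing hormone on Leydig cells. The column headers write the mutant allele as Fshr-CAM. The sources used here do not give what that allele changes, what drives it, or whether each array came from a separate animal. The p-values therefore measure the spread between these samples, which may be technical.

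The testis-specific serine kinases are protein kinases made almost only by male germ cells after meiosis, while the round spermatid builds its acrosome and flagellum and condenses its nucleus. In the mouse Tssk1 and Tssk2 act as a pair that binds and phosphorylates Tsks, a protein of the spermatid cytoplasm and centrioles, and males without both kinases are infertile. Tssk4 acts on the sperm flagellum through Odf2, and Tssk6 is needed for the shaping of the sperm head and works with a chaperone complex that its co-chaperone Tsacc recruits. Spermatids have receptors for neither hormone, and androgen from Leydig cells reaches them by way of Sertoli cells.

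Promoter sequences of the detected genes and of Tssk1 are shown because the detected genes moved together on the arrays and because Tssk1 and Tssk2 are neighbours. All sequences come from RefSeq on the build GRCm38.p6 and hold the 120 bases before the transcript start used by the promoter table, each on the plus strand of its chromosome. Capitals mark matches to TGACNTCA or to TGACG, on either strand. These are a looser and a shortened form of the cAMP response element TGACGTCA, which the spermatid factor Crem binds. Tssk6 lies at chr8:69902064-69902183, Tssk2 at chr16:17898517-17898636, Tssk1 at chr16:17894083-17894202, Tssk4 at chr14:55650064-55650183 and Tsks at chr7:44943120-44943239.
Tssk6: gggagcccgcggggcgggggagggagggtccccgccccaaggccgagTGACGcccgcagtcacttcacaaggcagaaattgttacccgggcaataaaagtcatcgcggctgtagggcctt
Tssk2: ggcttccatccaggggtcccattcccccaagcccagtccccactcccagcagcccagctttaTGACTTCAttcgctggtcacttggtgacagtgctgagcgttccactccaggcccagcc
Tssk1: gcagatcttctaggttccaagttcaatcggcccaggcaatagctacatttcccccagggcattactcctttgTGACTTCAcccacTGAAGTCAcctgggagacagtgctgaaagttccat
Tssk4: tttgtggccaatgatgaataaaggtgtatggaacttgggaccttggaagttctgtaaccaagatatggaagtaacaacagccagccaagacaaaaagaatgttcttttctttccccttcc
Tsks: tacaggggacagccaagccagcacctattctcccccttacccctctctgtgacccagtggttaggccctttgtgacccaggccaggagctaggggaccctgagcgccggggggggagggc

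Within 250 bases before the start, the full element TGACGTCA stood in 0 of 6 promoters searched (the 5 shown and that of Tssk3, not shown) and in 1.55% of 32851 promoters. The looser form TGACNTCA stood in Tssk1, at -48 to -41 and -35 to -28, and in Tssk2, at -58 to -51, and in 7.49% of all promoters. This form was chosen after the sequences were seen, and it contains the full element. TGACG, which the full element also contains, stood in Tssk6 at -73 to -69 and in 17.8% of all promoters. Tssk1 ends 2983 bases before Tssk2 starts on chromosome 16, and their promoters share the 11 bases gacagtgctga, starting at -20 in Tssk1 and at -33 in Tssk2. These are matches of letters, and no binding was measured. For Tssk4 and Tsks the start used by the table lies inside the interval that the gene table gives the gene, which runs over 8889 and 28570 bases.

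Between 15482 and 18950 probes were detected per array, and probes had a median of 40 to 43 beads. The 5 tested probes were detected on all 18 arrays. Their signals rested on 26 to 65 beads, with a standard error between beads of 2.38% to 6.68% and a median of 4.24%. Levels below are log2 intensities after background correction and quantile normalization, and levels of different probes are not set against each other. As a check of the labels, the brightest Fshr probe was at 8.79 ± 0.35 (SD, n = 4) in the other double mutant arrays, at 7.93 ± 0.31 (SD, n = 5) on Lhr null arrays and at 8.59 ± 0.14 (SD, n = 4) on Fshr mutant arrays. On the double mutant array labelled replicate 2 it was at 5.68, where the wild type arrays ranged over 5.16 to 5.85. This probe was thus high in Lhr null testes too, which carry no Fshr mutation. A second Fshr probe, ILMN_2932141, was at 5.66 on the same array, among the other double mutant arrays (5.44 to 6.24), but it did not separate these from wild type (5.70 to 6.36), and was at 7.89 to 8.49 in Lhr null arrays. The same array had a mean level of 8.94 over 5 Leydig cell markers, against 7.08 to 7.36 on the other double mutant arrays and 9.04 to 9.82 on wild type arrays. Without the double mutant array labelled replicate 2, the double mutant means of the 5 probes were 12.79 for Tssk6, 12.12 for Tssk2, 10.79 for Tssk4, and 13.39 and 10.96 for the brighter and the other probe of Tsks. Comparisons without this array are given beside those with it. No named probe of Lhcgr, the gene of Lhr, was tested.

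Tssk6, Tssk2, Tssk4 and Tsks transcripts were all lower in Lhr null than in wild type testes, and in the double mutant none of them was called different from wild type. The fall in Lhr null testes was 17.0-fold for Tssk6, 4.28-fold for Tssk2 and 2.75-fold for Tssk4. Tsks fell 4.01-fold by its brighter probe and 7.24-fold by the other. The Fshr mutation alone left all 5 probes without a call.

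Tssk6, a kinase needed for compaction of the sperm head, was at 12.86, 12.78, 12.89, 12.58 and 12.85 in the 5 double mutant arrays and at 10.73, 9.41, 8.86, 7.41 and 7.61 in the 5 Lhr null arrays. It was at 12.75, 12.89, 12.87 and 12.89 in the 4 Fshr mutant arrays and at 12.95, 12.96, 12.91 and 12.73 in the 4 wild type arrays. Every Lhr null array lay below every other array, and the other 3 genotypes overlapped. The group means were 12.79 ± 0.13 (SD, n = 5) in the double mutant, 8.80 ± 1.36 (SD, n = 5) in Lhr null, 12.85 ± 0.07 (SD, n = 4) in Fshr mutant and 12.89 ± 0.11 (SD, n = 4) in wild type. The Lhr null arrays thus spread over more than the whole range of the other genotypes. Before any correction the intensity was 247 to 1605 on Lhr null arrays and 6791 to 13014 on wild type arrays, with medians in a ratio of 18.4. In the fit the Lhr null minus wild type difference was -4.09 ± 0.44 (SE, limma adjusted p = 2.75e-07), which placed Tssk6 17th from the lowest of 19076 probes. That fit shares 1 estimate of the spread over all genotypes. Its SE and p-value are therefore smaller than the wide spread of the Lhr null arrays would give. The same holds for the other tested probes and for the differences between double mutant and Lhr null testes.

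Tssk2, which forms a kinase pair with Tssk1, was at 11.83, 12.20, 12.09, 12.49 and 12.09 in the double mutant and at 11.30, 10.59, 10.01, 9.76 and 9.50 in Lhr null testes. It was at 12.19, 12.43, 12.26 and 11.93 in Fshr mutant and at 12.37, 12.19, 12.41 and 12.37 in wild type testes. Lhr null arrays again lay below all others. The means were 12.14 ± 0.24 (SD, n = 5) in the double mutant, 10.23 ± 0.72 (SD, n = 5) in Lhr null, 12.20 ± 0.21 (SD, n = 4) in Fshr mutant and 12.33 ± 0.10 (SD, n = 4) in wild type. The Lhr null minus wild type difference was -2.10 ± 0.26 (SE, limma adjusted p = 1.15e-06).

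Tssk4, a kinase of the sperm flagellum, was at 10.62, 10.77, 10.70, 10.86 and 10.99 in the double mutant and at 9.84, 9.10, 8.78, 8.71 and 9.01 in Lhr null testes. It was at 10.51, 10.51, 10.85 and 10.60 in Fshr mutant and at 10.36, 10.74, 10.40 and 10.68 in wild type testes. The gap to the Lhr null arrays was the narrowest of the kinases, with the highest Lhr null array 0.52 below the lowest wild type array. The means were 10.79 ± 0.14 (SD, n = 5) in the double mutant, 9.09 ± 0.45 (SD, n = 5) in Lhr null, 10.62 ± 0.16 (SD, n = 4) in Fshr mutant and 10.54 ± 0.19 (SD, n = 4) in wild type. The Lhr null minus wild type difference was -1.46 ± 0.18 (SE, limma adjusted p = 1.02e-06).

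Tsks, the shared substrate of Tssk1 and Tssk2, was read by 2 probes. The brighter, ILMN_1235441, was at 13.32, 13.35, 13.46, 13.41 and 13.39 in the double mutant, at 12.39, 11.79, 11.20, 10.77 and 10.63 in Lhr null, at 13.39, 13.28, 13.60 and 13.31 in Fshr mutant and at 13.33, 13.34, 13.45 and 13.30 in wild type testes. The other, ILMN_3138175, was at 10.95, 11.13, 10.97, 10.97 and 10.96 in the double mutant, at 9.27, 8.67, 7.96, 7.62 and 7.31 in Lhr null, at 10.82, 10.93, 11.05 and 10.94 in Fshr mutant and at 10.91, 11.25, 10.91 and 11.03 in wild type testes. By either probe the Lhr null arrays stood apart below the rest, and the other 3 genotypes overlapped. The brighter probe averaged 13.38 ± 0.06 (SD, n = 5) in the double mutant, 11.35 ± 0.73 (SD, n = 5) in Lhr null, 13.39 ± 0.15 (SD, n = 4) in Fshr mutant and 13.36 ± 0.07 (SD, n = 4) in wild type. The other probe averaged 11.00 ± 0.07 (SD, n = 5) in the double mutant, 8.17 ± 0.80 (SD, n = 5) in Lhr null, 10.93 ± 0.09 (SD, n = 4) in Fshr mutant and 11.02 ± 0.16 (SD, n = 4) in wild type. For this gene, as for the 3 kinases, Lhr null had the lowest mean and the spread did not separate the other genotypes. The Lhr null minus wild type differences were -2.00 ± 0.24 for the brighter and -2.86 ± 0.27 for the other probe (SE, limma adjusted p = 1.17e-06 and 5.87e-08).

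**Figure D1:**
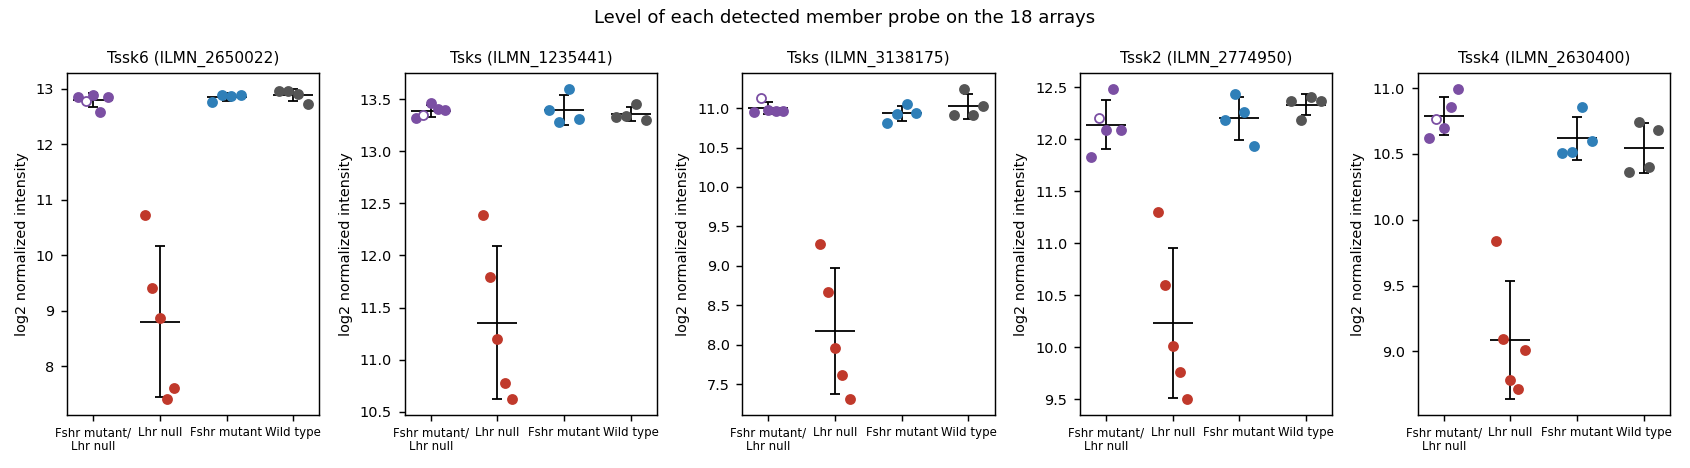
Log2 normalized intensity (vertical axis) of the 5 detected probes in double mutant (Fshr mutant/Lhr null), Lhr null, Fshr mutant and wild type testes; points are arrays, long bars group means and whiskers 1 SD, and the open point is the double mutant array labelled replicate 2. In every panel the Lhr null points lie below all others and the other 3 genotypes overlap.

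Tssk1, the partner of Tssk2, and Tssk5 gave no level. The Tssk1 probe read 42.0 to 60.5 intensity units before correction, with a detection p of 0.228 to 0.957. The Tssk5 probe read 39.3 to 59.9, with a detection p of 0.0673 to 0.912. Since the wild type arrays were not above the negative controls either, no difference of these 2 genes could be seen on this platform.

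Lhr null testes were first compared with wild type, which asks what is lost without the luteinizing hormone receptor. Of the 5 tested probes, 5 were lower and 0 higher, against 27.4% of all tested probes called lower, 41.3% called higher and 68.8% called in either direction. The 5 differences had a median of -2.10, while all tested probes had a median of 0.17, with a 5th percentile of -1.88 and a 95th percentile of 1.12. Between the groups, 5 of 5 probes did not overlap, as did 54.8% of all tested probes. In whole testis, fewer cells of a type and less RNA per cell cannot be told apart.

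The array Lhr null replicate 1 was the highest of its group for 5 of 5 probes. It also had the highest mean level of 14 elongating spermatid markers in its group, 11.49 against 9.43 to 10.64 on the other Lhr null arrays. Without it the 5 probes were still lower, with a median difference of -2.38.

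**Figure D2:**
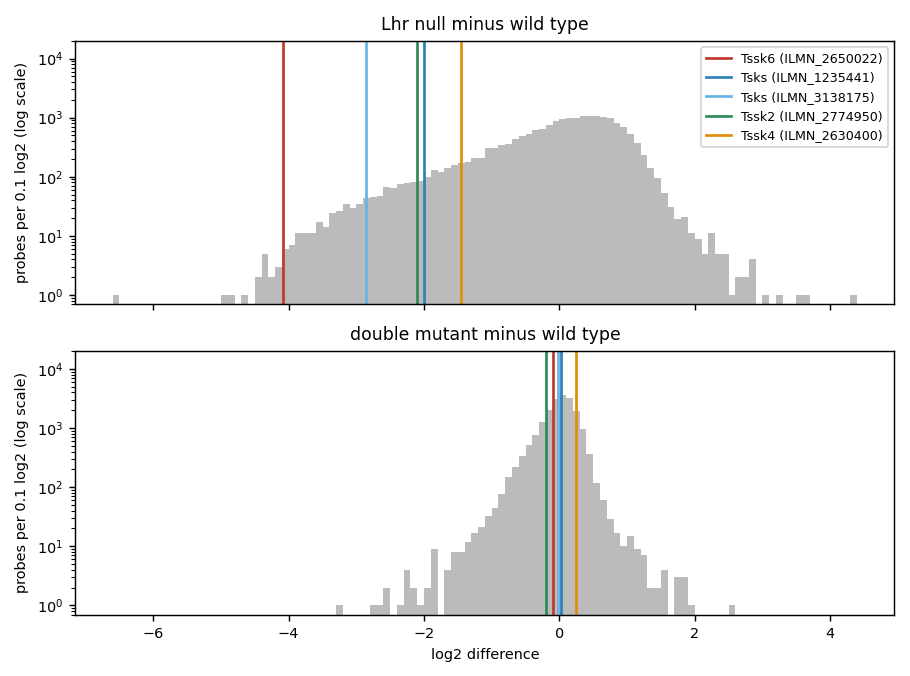
Distribution of the log2 difference (horizontal axis) over all 19076 tested probes, in probes per 0.1 log2 on a log scale, for Lhr null minus wild type (top) and double mutant minus wild type (bottom); vertical lines mark the 5 probes. The lines lie between -4.09 and -1.46 in the top panel and between -0.19 and 0.24 in the bottom panel.

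The double mutant compared with Lhr null asks what the Fshr mutation changes where the luteinizing hormone receptor is missing. All 5 probes were higher in the double mutant (5 of 5, against 30.1% of all tested probes called higher, 42.5% called lower and 72.6% called in either direction). Tssk6 was 15.9-fold higher, at 3.99 ± 0.41 (SE, limma adjusted p = 1.42e-07) on the log2 scale. Tssk2 was 3.74-fold and Tssk4 3.25-fold higher, with differences of 1.90 ± 0.24 and 1.70 ± 0.17 (SE, limma adjusted p = 1.49e-06 and 7.16e-08). Tsks was 4.08-fold higher by its brighter and 7.10-fold by its other probe. The groups did not overlap for 5 of 5 probes, against 55.7% of all tested probes. Without the double mutant array labelled replicate 2 the 5 probes were still higher, with a median difference of 2.04 against 2.03 with it.

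The double mutant was then set against wild type, with which the comparison above shares its double mutant arrays. Of the 5 probes, 0 were called, against 0.86% of all tested probes. At an unadjusted p under 0.05, 3200 of all tested probes and 0 of the 5 passed. Tssk6 differed by -0.10, with a 95% interval of -1.02 to 0.83, and Tssk2 by -0.19, with an interval of -0.73 to 0.34. For Tssk4 the difference was 0.24, with an interval of -0.13 to 0.61. By its brighter probe Tsks differed by 0.03 (-0.49 to 0.54) and by its other probe by -0.03 (-0.59 to 0.53). The limma adjusted p-values of these differences lay between 0.504 and 0.977. In this fit, differences up to the ends of these intervals were not excluded.

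These intervals carry the wide spread of the Lhr null arrays, since the fit shares 1 estimate of the spread over all genotypes. With only double mutant and wild type arrays in the fit the interval was -0.30 to 0.11 for Tssk6, -0.47 to 0.08 for Tssk2 and -0.01 to 0.49 for Tssk4. For Tsks it was -0.14 to 0.20 by the brighter probe, and there too 0 of the 5 probes were called. Without the double mutant array labelled replicate 2, 0 of the 5 probes were called, with a median difference of -0.06 against -0.03 with it. The groups overlapped for all 5 probes, whereas 8.14% of all tested probes did not overlap.

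**Figure D3:**
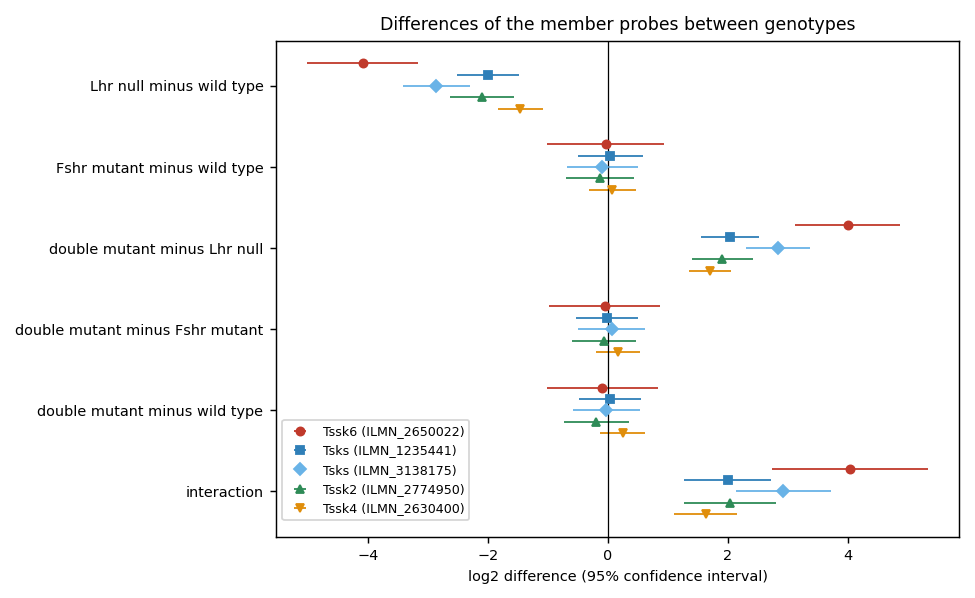
Log2 difference (horizontal axis) of the 5 probes in each comparison, with 95% confidence intervals from the fit over all 18 arrays; the interaction is the effect of the Fshr mutation on the Lhr null background minus its effect on the wild type background. Intervals of the comparisons with Lhr null testes and of the interaction exclude 0, and those of the other 3 comparisons include it.

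The Fshr mutant against wild type gave 0 of 5 probes called, against 0% of all tested probes, and at an unadjusted p under 0.05 limma passed 783 of all tested probes and 0 of the 5. The differences lay between -0.13 for Tssk2 and 0.07 for Tssk4, and the interval of Tssk6 was -1.01 to 0.93. The double mutant against Fshr mutant also gave 0 of 5 called, against 0.0367% of all tested probes, and 0 of the 5 against 1203 of all probes at an unadjusted p under 0.05. There the differences lay between -0.06 for Tssk2 and 0.17 for Tssk4, and between -0.08 and 0.18 without the double mutant array labelled replicate 2, again with 0 called. No probe separated the groups in either comparison, where 3.26% and 2.78% of all tested probes did.

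The effect of the Fshr mutation on the 2 backgrounds was compared by the interaction, which uses all 4 genotypes. It was called for 5 of 5 probes, all higher, against 23.7% of all tested probes called higher, 34% called lower and 57.7% called in either direction. The value was 4.03 ± 0.62 for Tssk6 and 2.03 ± 0.36 for Tssk2 (SE, limma adjusted p = 3.92e-05 and 1.46e-04). It was 1.63 ± 0.25 for Tssk4 (SE, limma adjusted p = 3.67e-05) and 1.99 ± 0.35 for the brighter probe of Tsks (SE, limma adjusted p = 1.18e-04). Without the double mutant array labelled replicate 2 it was 4.03 for Tssk6, 2.01 for Tssk2, 1.63 for Tssk4 and 2.00 for the brighter probe of Tsks, and all 5 probes were still called.

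The kinase probes did not fall equally in Lhr null testes. For each array the level of a gene's brightest probe was subtracted from that of another, and the change of this difference between genotypes was tested by exact two-sided permutation over the 126 splits of 5 and 4 arrays, whose smallest p is 0.00794. With 6 pairs in 2 comparisons, 12 tests were adjusted together. Tssk6 minus Tsks averaged -2.55 ± 0.66 (SD, n = 5) in Lhr null testes and -0.47 ± 0.11 (SD, n = 4) in wild type testes, a change of -2.08 (exact p = 0.00794, adjusted 0.0476). Tssk6 minus Tssk2 averaged -1.43 ± 0.70 (SD, n = 5) in Lhr null testes and 0.56 ± 0.17 (SD, n = 4) in wild type testes, a change of -1.99 (exact p = 0.00794, adjusted 0.0476). By these probes Tssk6 thus fell more than its relative Tssk2 and more than Tsks. Each kinase was read by 1 probe, so whether another probe of it would fall as much was not tested. With the other Tsks probe the change of Tssk6 minus Tsks was -1.23 (exact p = 0.0159, adjusted 0.0397 over the 10 tests with that probe, which were added after the values were seen).

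Tssk6 minus Tssk4 changed by -2.63, which did not pass after adjustment (exact p = 0.0159, adjusted 0.0635) but passed under each of the 6 other settings of background and scaling. Tsks minus Tssk2 changed by 0.10 between Lhr null and wild type (exact p = 0.135, adjusted 0.180), which holds for the brighter Tsks probe only. With the other probe, ILMN_3138175, Tssk2 minus Tsks averaged 2.07 ± 0.10 (SD, n = 5) in Lhr null testes and 1.31 ± 0.25 (SD, n = 4) in wild type testes, a change of 0.76 (exact p = 0.00794, adjusted 0.0265 over the 10 tests with that probe). Whether Tsks fell as much as Tssk2 or more thus depends on the probe. Tsks minus Tssk4 changed by -0.54 with the brighter Tsks probe (exact p = 0.0714, adjusted 0.143). With ILMN_3138175, Tssk4 minus Tsks changed by 1.40 (exact p = 0.00794, adjusted 0.0265 over those 10 tests). Tssk2 minus Tssk4 changed by -0.64 (exact p = 0.0476, adjusted 0.114). Between double mutant and wild type testes 0 of the 6 pairs passed, with changes from -0.44 to 0.22, and 0 passed without the double mutant array labelled replicate 2, with changes from -0.46 to 0.24. Scaling of the arrays mattered here: 5 of the 12 tests passed with median scaling, without normalization or with the authors' processed values, where 2 passed with quantile normalization. Leaving out any 1 Lhr null or wild type array left 0, since fewer splits raise the smallest p.

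The probes of Tsks also fell unequally. ILMN_3138175 minus ILMN_1235441 averaged -3.19 ± 0.09 (SD, n = 5) in Lhr null testes and -2.33 ± 0.19 (SD, n = 4) in wild type testes, a change of -0.85 (exact p = 0.00794). In the double mutant it averaged -2.39 ± 0.10 (SD, n = 5), a change of -0.06 from wild type (exact p = 0.579), and a change of -0.10 without the array labelled replicate 2 (exact p = 0.429). The test was added after the values were seen. Over 6 other settings of background and scaling the Lhr null change lay between -0.44 and -0.91, each with an exact p of 0.00794. The sources used here do not give which transcripts each probe reads.

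**Figure D4:**
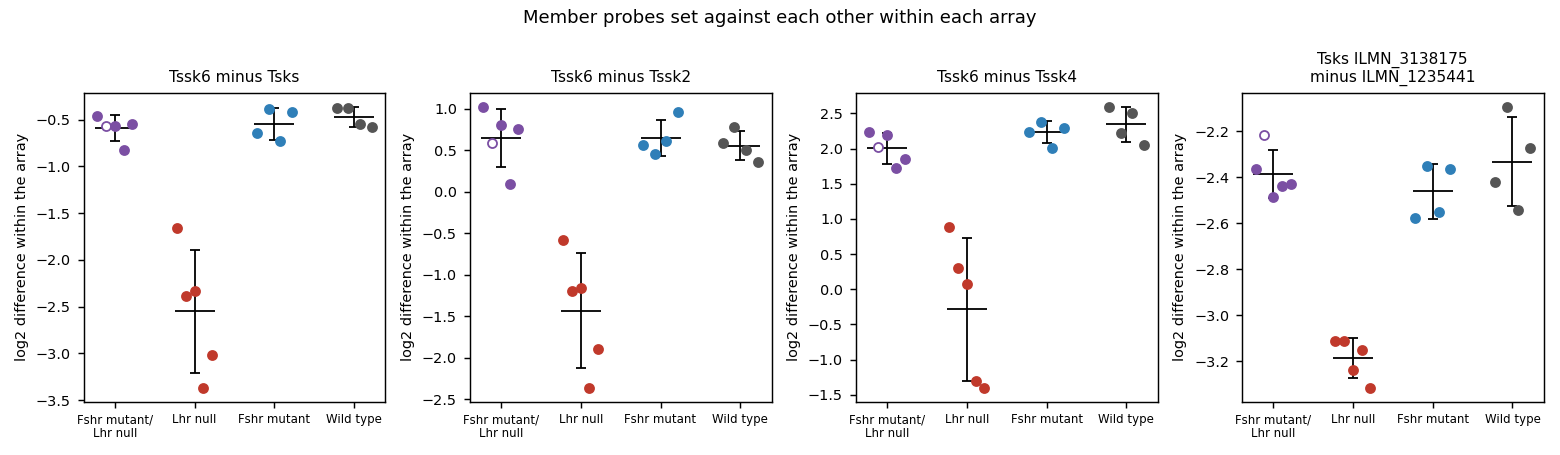
Difference in log2 level between 2 probes on the same array (vertical axis) for 3 pairs of genes and for the 2 Tsks probes, in double mutant, Lhr null, Fshr mutant and wild type testes; points are arrays, long bars means, whiskers 1 SD, and the open point the double mutant array labelled replicate 2. Lhr null points lie lowest in all 4 panels, with the widest spread for Tssk6 minus Tssk4.

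Markers of spermatid stages moved with the kinases. Of 14 tested elongating spermatid markers, 14 were lower and 0 higher in Lhr null testes than in wild type (13 and 0 with cyclic loess). Over all tested probes 27.4% were called lower and 41.3% higher. The summed intensity of the elongating spermatid markers ranged over 23962 to 74678 in Lhr null and 143315 to 149128 in wild type. Of 14 round spermatid markers, 12 were lower and 0 higher, with sums of 24656 to 41216 in Lhr null and 55019 to 60173 in wild type. All of these 28 markers were detected in at least 1 array of each genotype. In the double mutant the sums were 139939 to 147516 for elongating (up to 143390 without the array labelled replicate 2) and 56689 to 63531 for round spermatid markers. Against wild type 0 of either list were called, where 0.86% of all tested probes were called. The part of these stages in the kinase values was not tested beyond the comparison that follows.

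Within each array the kinases were set against the mean of these marker lists, a comparison added after the values were seen and adjusted over 16 tests. Relative to the elongating spermatid list, which itself changed by -2.60 between Lhr null and wild type, Tssk6 changed by a further -1.48 (exact p = 0.00794, adjusted 0.0363). Tssk2 changed by 0.51, Tsks by 0.60 and Tssk4 by 1.15 relative to that list, each with an adjusted p of 0.0363 from the exact test. Tssk6 thus fell more than the mean of elongating spermatid markers, while Tssk2, Tssk4 and Tsks by its brighter probe fell less. In the fit of Lhr null against wild type, individual markers of that list ranged from -3.81 (Fscn3) to -0.57 (Prm1). Of the tested kinase and Tsks probes only that of Tssk6 (-4.09) lay outside this range. By its other probe Tsks changed by -0.25 relative to that list, which did not pass (exact p = 0.0635, adjusted 0.106 over the 10 tests with that probe). Relative to the round spermatid list, which changed by -1.05, Tssk6 changed by -3.04, Tssk2 by -1.05 and Tsks by -0.95 by its brighter probe (exact test, adjusted p = 0.0363 each). By its other probe Tsks changed by -1.81 relative to the round spermatid list (exact p = 0.00794, adjusted 0.0265 over the 10 tests with that probe). Tssk4 changed by -0.41 relative to the round spermatid list, which did not pass (exact p = 0.0397, adjusted 0.0794). Between double mutant and wild type 0 of the 8 such tests passed. Without the double mutant array labelled replicate 2 the smallest unadjusted exact p of these 8 was 0.0857. These comparisons were made with quantile normalization only.

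Markers of other cell types were also called in Lhr null against wild type testes. Over all tested probes 41.3% were called higher and 27.4% lower there. Higher and lower calls numbered 3 and 2 of 8 spermatocyte markers, 6 and 0 of 7 spermatogonial markers, 6 and 1 of 8 Sertoli cell markers and 2 and 0 of 3 peritubular myoid markers. The spermatocyte counts were near the shares of all tested probes. Leydig cell markers were lower in 5 of 5 and macrophage markers in 2 of 4. Star and Hsd17b3, of the Leydig list, were detected on 0 of the 5 Lhr null arrays. In the double mutant against wild type the Leydig markers were lower in 5 of 5, with or without the double mutant array labelled replicate 2, but in 3 of 5 without Lhr null replicate 1. Of the markers of the other types 0 were called there, against 0.86% of all tested probes. Summed Leydig marker intensity was 3217 to 4395 on 4 double mutant arrays and 10828 on the double mutant array labelled replicate 2. It was 948 to 1871 in Lhr null, 11612 to 14346 in Fshr mutant and 13286 to 18699 in wild type testes. The Sertoli sums were 8938 to 10593 in the double mutant (9315 to 10593 without that array), 20070 to 25301 in Lhr null, 8251 to 9237 in Fshr mutant and 8885 to 10202 in wild type testes. The part of cell composition in the kinase values was not tested.

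Genes of proteins that work with these kinases were called in both directions, in shares near those of all tested probes. Of 11 tested partners and substrates, 3 were higher and 4 lower in Lhr null testes than in wild type, against 41.3% and 27.4% of all tested probes, with a median difference of -0.08. Pdpk1, which phosphorylates Tssk3, was lower, at -1.46 ± 0.21 (SE, limma adjusted p = 6.48e-06), and Odf2, the flagellar substrate of Tssk4, was lower, at -1.30 ± 0.13 (SE, limma adjusted p = 8.90e-08). Hspa8, a constitutive Hsp70 chaperone, was higher by 1.40 ± 0.13 (SE, limma adjusted p = 4.76e-08). Stip1, which couples Hsp70 to Hsp90, was higher by 0.67 ± 0.11 (SE, limma adjusted p = 3.62e-05), but lost its call with median scaling (0.36) and without normalization (0.33). In the double mutant 0 of the 11 were called against wild type, where 0.86% of all tested probes were called.

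Of 16 other protein kinases of male germ cells, 6 were higher and 4 lower in Lhr null testes than in wild type, with a median of 0.16. These shares too were near the 41.3% higher and 27.4% lower of all tested probes, so the counts say nothing particular to these kinases. Stk35 was lower, at -2.69 ± 0.24, and Dyrk4, a kinase of late spermatids, at -2.49 ± 0.28 (SE, limma adjusted p = 4.22e-08 and 4.06e-07). Camk4, a calmodulin-dependent kinase of spermatids, reached detection on 0 of 5 Lhr null arrays. It was at least 3.80-fold lower there, a bound set by the lowest detected signal of each array and not tested. The fitted difference, which uses the undetected values, was -2.51 (limma adjusted p = 3.70e-10). Mak, a kinase of meiotic and later germ cells, was lower, at -1.36 ± 0.14 (SE, limma adjusted p = 1.59e-07). The direction of this list was not stable: with median scaling and without normalization 3 were higher and 4 lower, with cyclic loess 4 and 7. Of the 10 called genes, 1 turned its direction and 3 lost their call with median scaling, and likewise without normalization. With cyclic loess 0 turned and 2 lost their call. In the double mutant 0 of the 16 were called against wild type, where 0.86% of all tested probes were called.

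Of 10 genes of spermatid transcription control, 1 was higher and 5 were lower in Lhr null testes than in wild type (41.3% and 27.4% of all tested probes), with a median of -0.20. Crem itself, the master factor of the spermatid programme, was lower, at -0.48 ± 0.11 (SE, limma adjusted p = 7.41e-04). Fhl5, a coactivator of Crem, was lower, at -2.01 ± 0.24 (SE, limma adjusted p = 1.09e-06), and Sox5 was at -1.31 ± 0.14 (SE, limma adjusted p = 3.69e-07). Sox30, a transcription factor of the haploid germ cell programme, reached detection on 0 of 5 Lhr null arrays. It was at least 2.04-fold lower by the same untested bound. The fitted difference, which uses the undetected values, was -1.60 (limma adjusted p = 1.86e-08). Taf7l, a germ cell relative of a TFIID subunit, was higher by 1.41 ± 0.12 (SE, limma adjusted p = 3.39e-08). Median scaling, or no normalization, raised the lower calls of this list to 8. In the double mutant 0 of the 10 were called against wild type, where 0.86% of all tested probes were called.

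**Figure D5:**
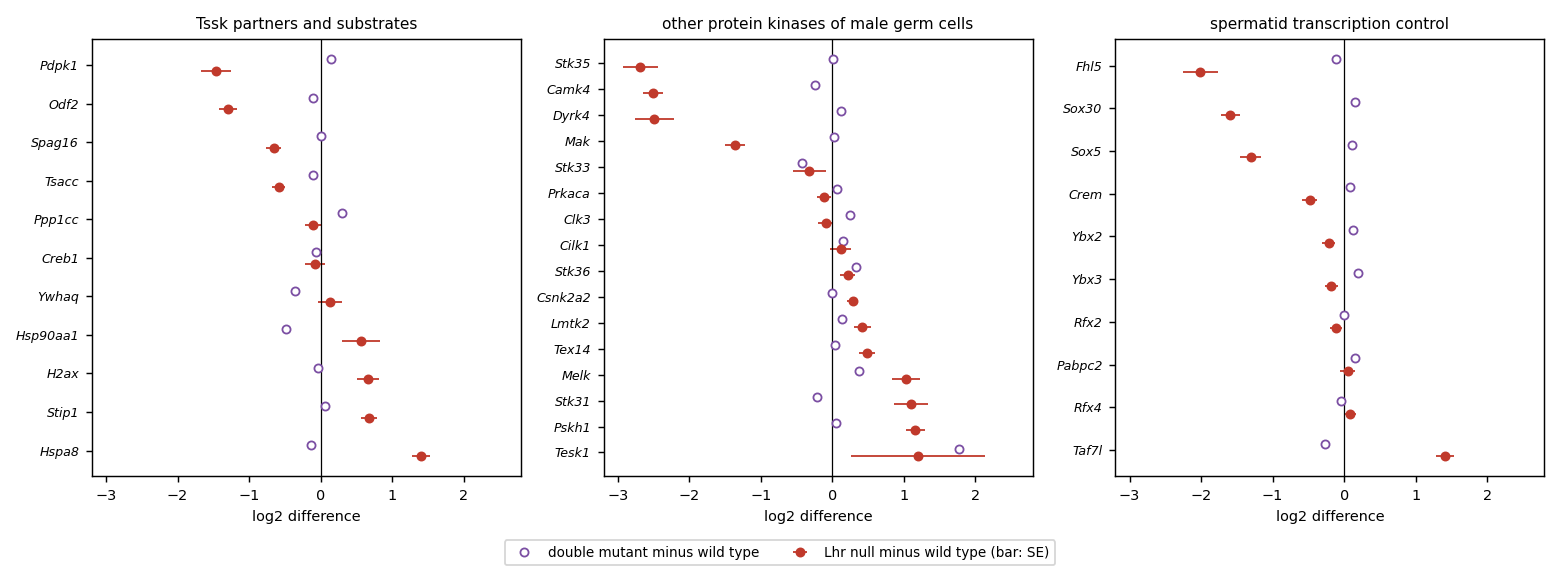
Log2 difference (horizontal axis) of each tested gene of 3 lists, for double mutant minus wild type (open points) and Lhr null minus wild type (filled points, bars 1 SE), sorted by the filled points. In Lhr null testes the lists hold both lower genes, down to -2.69 for Stk35, and higher ones, up to 1.41 for Taf7l.

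The genes closest in pattern were found by the root mean square distance of log2 levels, each relative to its own wild type mean, over the 18 arrays and 10797 other named genes. For Tssk6 they were 1700020A23Rik at a distance of 0.134, Ubqlnl at 0.177 and Ttc24 at 0.181, where the median gene stood at 2.38. For Tssk2 they were Hils1, a linker histone of spermatids, at 0.141, Cyp51, an enzyme of sterol synthesis, at 0.158 and Fhl5 at 0.164. For Tssk4 they were Spaca5 at 0.0921, Rc3h1 at 0.122 and Pdzk1ip1 at 0.125. For Tsks they were Gsg1 at 0.114, Slc25a41 at 0.120 and Dnajb8, a chaperone with a J domain, at 0.127. Among the 4 genes themselves, Tsks and Tssk2 lay closest at 0.214, and Tssk6 and Tssk4 lay farthest apart at 1.49. These distances are a description over arrays that share the genotype groups.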

How the data were processed

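Mouse testis RNA was measured on 18 Illumina bead arrays. The deposited table of unnormalized values covers 45281 probes on each array. Per the file headers it holds a mean bead intensity, a standard error of the bead intensities, a detection p-value and a number of beads. Per the submitters' processing notes GenomeStudio 1.7.0 was used. The sources used here name no further step. The authors' processed intensity values were deposited on a linear scale with their normalization not stated, and served as an alternative.

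Background was removed in R 4.3.3 by limma 3.58.1 with a normexp convolution whose background parameters came from the detection p-values, using offset 16. Values were then quantile normalized and taken to log2. Folds are on this scale and understate changes of dim probes. The 19076 probes with a detection p under 0.01 on 4 or more arrays were kept. Probe names came from the platform annotation, with 34885 probes carrying 1 gene symbol, 18 several and 10378 none here, and 34807 symbols were updated through the gene identifier. Groups followed the genotype label. limma fitted 4 group means to all 18 arrays with eBayes, and adjusted p-values are Benjamini-Hochberg values over all kept probes, called at 0.05. Differences within arrays were tested by exact permutation, adjusted over 12 tests in both comparisons together. The model was tried on simulated data with 200 changed probes and, for each probe, the same spread in every genotype. Those data had neither the many called probes nor the wide Lhr null spread seen here, so the trial does not cover them. The number of arrays limits the precision.

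The genes, the lists and the tests were chosen with earlier results of these data known. Named were all probes of the 7 genes, Fshr as a check, up to 4 called members of each list with the largest Lhr null difference (Crem was added after its value was seen), and the 3 genes nearest in pattern. The lists were partners and substrates, other germ cell kinases, spermatid transcription control, and markers of elongating and round spermatids, spermatocytes, spermatogonia, Sertoli, Leydig and peritubular myoid cells and macrophages. A gene was represented by its brightest probe. Same-numbered replicates did not deviate together: 25 same-number pairs had a median correlation of -0.02 (-0.35 to 0.24). Alternatives were other background corrections, scalings and filters, the processed values, 1 probe per gene, array weights, a replicate block, only the compared groups, and leaving out arrays. Promoters were searched in the RefSeq table of GRCm38.p6.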

Additional observations from a re-analysis of the deposited data

Results flagged for a closer look

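Of 20 sets of arrays, 1 for each of the 5 probes in each genotype, 2 held an array far from the rest of its group by Dixon's test, where chance gives about 1 in 20. The Tsks probe ILMN_3138175 was at 11.13 on the double mutant array labelled replicate 2, above the next value of 10.97. Tssk6 was at 12.75 on Fshr mutant replicate 1, below the next value of 12.87. Both gaps are small beside the differences between Lhr null and the other genotypes.

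The effect of the Fshr mutation differed between the Lhr null and the wild type background for all 5 probes by the interaction term of limma. The difference of the 2 effects was 4.03 for Tssk6, 2.03 for Tssk2, 1.63 for Tssk4, 1.99 for the brighter and 2.92 for the other probe of Tsks.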

How the results depend on the processing

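The number of called probes was the same under 31 alternatives for each comparison (30 for the interaction), except that with 1 probe per gene 4 rather than 5 were counted, since Tsks then has 1. No probe turned its direction where it was called. In Lhr null against wild type Tssk6 ranged from -4.58 to -3.76 over all alternatives. The replicate block left every count of called probes as it was (5, 0, 5, 0, 0 and 5 in the 6 comparisons); same-numbered arrays share only a number, and of all probes in double mutant against wild type it called 40 in place of 164. The count of unequal changes was 2 of 12, and was 5 with median scaling, without normalization and with the authors' processed values. It was 0 to 2 when 1 array was left out, with 0 wherever the array was Lhr null or wild type, where fewer splits raise the smallest p.

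Counts over all probes moved more. In double mutant against wild type 164 probes were called, but 1464 with array weights, 76 without the filter, 291 with only the compared groups, 274 without the double mutant array labelled replicate 2 and 330 without this array and Lhr null replicate 1. In double mutant against Fshr mutant 7 were called, but 15 with median scaling, 4 with cyclic loess, 67 with array weights, 2 without the filter, 88 without those 2 arrays, and 3 with the block, with 1 probe per gene or with only the compared groups. In Fshr mutant against wild type 0 were called, but 2 with median scaling, 1 without normalization, 1 with array weights, 2 with only the compared groups and 4 without those 2 arrays. The interaction was called for 10998 probes, but for 7100 without normalization and 6488 with 1 probe per gene, where calls of Lhr null against wild type were 7689 rather than 13123 and of double mutant against Lhr null 8015 rather than 13845. Leaving out 1 array at a time gave 13 to 274 calls in double mutant against wild type, 1 to 81 against Fshr mutant, and 0 to 3 in Fshr mutant against wild type. The causes were not tested.

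Of the calls, the share higher in Lhr null testes than in wild type was 60.1%, but 48.4% with cyclic loess. In double mutant against Lhr null it was 41.5%, but 28.1% without normalization; against wild type 34.1%, but 3.95% with median scaling and 1.94% without normalization; and for the interaction 41.0%, but 53.5% with cyclic loess. The median of all probes in Lhr null against wild type was 0.17, but -0.01 with cyclic loess. Relative to it the 5 probes had a median of -2.27, and of -2.13 with cyclic loess, -2.50 with median scaling and -2.54 without normalization. In double mutant against Lhr null the relative median was 2.19, and 1.99 to 2.72 with these scalings. A chip block was not run, since the headers give no chip, and the interaction could not be run on 2 groups alone.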
